A study of Mus musculus with 6 samples.

Results

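The cytosolic ribosomal protein genes were examined in haematopoietic stem cells of mice, as 70 of the 20352 genes that the array measured with probe sets of a single gene symbol. Members were chosen by symbol: names that begin with Rpl or Rps and a number, with Rplp0, Rplp1, Rplp2 and Rpsa, leaving out S6 kinase genes, pseudogenes and Rps19bp1. Of the 70 genes, 45 encode proteins of the large subunit or their paralogs, and 25 of the small subunit. The set is not the whole family. RefSeq lists 88 coding genes of this name pattern, of which 69 had a probe set of a single symbol. Another 5 stood only in probe sets with several symbols, and 14 were not found in the platform annotation under their RefSeq symbols. The rule itself is by name and uses no measured value, but it was set with earlier results of these data known.

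Expression was measured on 6 arrays of bone marrow cells that the labels give as sorted KLSCD34-, a gate for cells with Kit and Sca-1 on their surface but neither CD34 nor lineage markers. Floxed arrays (n = 3) came from mice with floxed beta-catenin alleles that carried vav-Cre, a recombinase expressed from the Vav promoter in blood-forming cells. Control arrays (n = 3) are labelled as controls with no further genotype. Strain, age, sex and whether a replicate was 1 animal or a pool are not given in the sources used here, so every p-value reflects only how far these arrays scatter, and that scatter may be technical.

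The cytosolic ribosome makes all proteins encoded by nuclear genes. Each subunit is a core of ribosomal RNA with a single copy of most ribosomal proteins, the small subunit reading the message and the large subunit joining amino acids. Messenger RNAs of ribosomal proteins begin with a 5' terminal oligopyrimidine (TOP) tract, through which mTOR and LARP1 control their translation, so that the RNA level alone does not give the rate of synthesis. Blood stem cells are known for a low rate of protein synthesis, and mutations of ribosomal protein genes cause Diamond-Blackfan anaemia in humans.

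The values are log2 signals per probe set, and the value of a gene is the median over its probe sets that passed a filter on dim signal. The floxed gene checks the labels: Ctnnb1, which encodes beta-catenin, averaged 10.50 ± 0.19 (SD, n = 3) on floxed arrays and 11.38 ± 0.15 (SD, n = 3) on control arrays, a log2 fold change of -0.88 (SE 0.14, limma adjusted p = 0.667). It was -0.16 with a filter at the 75th percentile and -1.64 with the mean over probe sets. Among its 16 kept probe sets, 5 fell in limma at an adjusted p under 0.05 over all probe sets, with log2 fold changes of -6.90 to -2.51. The filter used the mean over both groups, so a probe set high on the control arrays could pass it through them. Kit, the receptor gene of the gate, averaged 11.73 on floxed and 11.84 on control arrays. Correlations across genes were 0.962 to 0.972 between floxed arrays and 0.880 to 0.934 between control arrays. Because the levels are relative within an array, fewer cells of a type and less RNA per cell cannot be told apart.

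Ribosomal protein genes lay slightly higher on floxed than on control arrays as a group, and no single gene passed the test. Of the 70 genes 61 passed the filter on dim signal, 36 of the large and 25 of the small subunit. In limma, 0 of the 61 passed an adjusted p of 0.05, against a background of 0.00% of the 14586 genes tested, and their smallest adjusted p was 0.999. At an unadjusted p under 0.05 there were 8 members higher and 1 lower, which is 14.8% of the 61. The background over all genes was 3.70%, made up of 2.43% higher and 1.28% lower. The share depended on the fit: it was 6.56% of members against 3.44% of all genes with eBayes without a trend, 6.56% against 1.81% without floxed replicate 2, 8.20% against 1.47% without floxed replicate 1, 8.20% against 3.02% without control replicate 2, 23.0% against 16.6% without control replicate 1, and 32.8% against 22.2% with array weights. The fold change was above 0 for 49 of 61 members, or 80.3%, where the background was 54.2% of all genes. The median log2 fold change, floxed minus control, was 0.08 over the members and 0.02 over all genes tested. The background was not matched to the members' signal level. With a filter at the 75th percentile, 80.4% of 56 members and 58.5% of all genes lay higher, with medians of 0.09 and 0.03 log2. After quantile normalization 41 of the 61 members, or 67.2%, lay higher, where the share of all genes was 45.5%. In a fit that weighted each array by its estimated quality, 8 members passed the adjusted p of 0.05, all of them higher (Rpl14, Rpl22, Rpl23a, Rpl26, Rpl4, Rps20, Rps4x and Rps7), where the background in that fit was 2.77% of all genes. That fit gave control replicate 2 a weight of 3.37 and control replicates 1 and 3 weights of 0.27 and 0.40, so its control level came mostly from 1 array. Of the 8 members, Rpl14, Rpl23a, Rps20, Rps4x and Rps7 rested on 1 kept probe set each.

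Both subunits lay on the same side. The large subunit had 29 of 36 genes higher and 7 lower, and the median log2 fold change was 0.10. The small subunit had 20 of 25 genes higher and 5 lower, and the median log2 fold change was 0.08. Among the 61 genes, fold changes ran from -0.25 to 0.63 on the log2 scale, and 60 were smaller than 0.5 in size. The 95% confidence interval of a member reached a median of 0.26 log2 to either side, against 0.39 log2 for all genes, and for 60 of the 61 it lay within 1 log2 of 0. Without the filter all 70 members had a value, and 54 of them lay higher (36 of 45 large and 18 of 25 small), or 77.1%, where the background was 49.8% of 20352 genes. In that fit 0 of the 70 passed the adjusted p of 0.05 (smallest 0.915 in limma), where the background was 0.00983%.

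**Figure D1:**
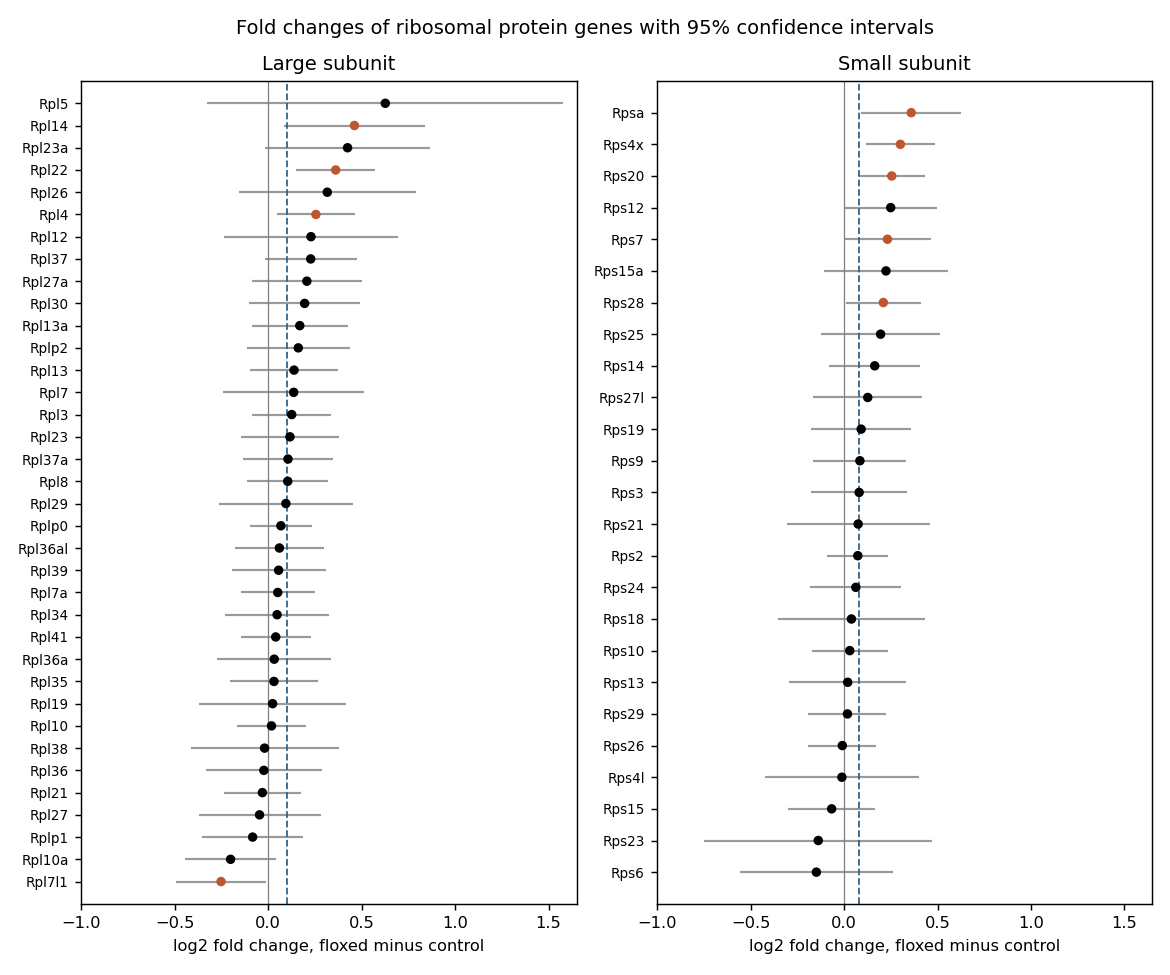
Log2 fold change (floxed minus control) of the 36 large subunit genes and 25 small subunit genes that passed the filter on dim signal, with 95% confidence intervals from limma. Orange points had an unadjusted p under 0.05, and the dashed line marks the subunit's median, 0.10 for the large and 0.08 for the small subunit; most intervals cross 0.

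The shift was not equally strong on every array. With each gene centred on its mean over the 6 arrays, the median deviation of the large subunit was 0.04, 0.02 and 0.08 log2 on floxed replicates 1, 2 and 3, against 0.03, -0.10 and -0.07 log2 on control replicates 1, 2 and 3. Control replicate 1 thus lay among the floxed arrays for the large subunit, and the groups overlapped. For the small subunit the median deviation was 0.02, 0.04 and 0.09 log2 on the floxed arrays, against -0.05, -0.06 and -0.10 log2 on the control arrays. The small subunit groups did not overlap.

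Over all genes tested the same deviation was -0.02, 0.02 and 0.03 log2 on the floxed arrays, against 0.003, 0.03 and -0.08 log2 on the control arrays. Control replicate 3 was thus low for genes in general. It held the lowest value of the 6 arrays for 31.1% of the members and for 34.7% of all genes. Control replicate 2 did not share that: it was lowest for 27.9% of the members, against 11.3% of all genes. Floxed replicate 3 was highest for 31.1% of the members, against 12.5% of all genes. Without control replicate 3 the members' median log2 fold change was 0.06 against 0.002 over all genes, and without control replicate 1 it was 0.11 against 0.02.

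**Figure D2:**
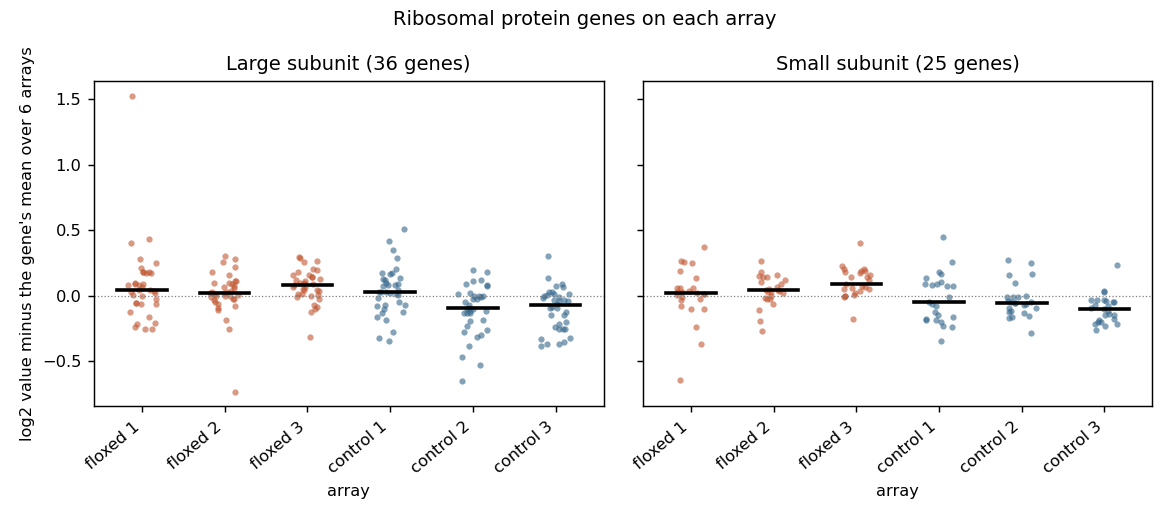
Each point is 1 ribosomal protein gene on 1 array, as its log2 value minus its mean over the 6 arrays, and black bars are medians. Floxed arrays lie at 0.02 to 0.09 and control arrays between -0.10 and 0.03, with control replicate 1 among the floxed arrays for the large subunit.

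Groups did not overlap for 12 members that were higher on every floxed array and 1 that was lower. The 12 are 19.7% of the members, where the background was 5.57% of all genes, and the background for lower genes was 2.87%. A two-sided exact permutation test of 3 against 3 arrays cannot give a p below 0.1. The 12 were Rpl22, Rps4x, Rps20, Rpsa, Rpl4, Rpl14, Rps28, Rps12, Rpl37, Rps14, Rpl13 and Rps2, and the 1 lower gene was Rpl7l1. They made up 7 of the 25 small subunit genes and 5 of the 36 large subunit genes on the higher side.

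The smallest unadjusted p belonged to Rpl22, whose RNA-binding protein sits on the surface of the large subunit and is needed for T cell development in mice. Its log2 values were 11.84, 11.88 and 11.81 on floxed replicates 1 to 3, against 11.48, 11.43 and 11.54 on control replicates 1 to 3. All floxed values lay above all control values, and the gap between the groups exceeded the spread within either. The log2 fold change was 0.36 (SE 0.10, 95% confidence interval 0.15 to 0.57, limma adjusted p = 0.999), and the unadjusted p from the fit across all genes was 0.00327. Each of its 3 kept probe sets was higher, by 0.15 to 0.43 log2. Only on the probe set at 0.43 log2 did the groups stand apart. On those at 0.20 and 0.15 log2 they overlapped, so the separation of the gene's values rests mainly on 1 probe set. Over 15 other settings the gene's fold change ran from 0.26 to 0.41 log2.

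Rps4x, the X-linked gene of a small subunit protein, had values of 12.84, 12.82 and 12.89 log2 on the floxed arrays, against 12.50, 12.54 and 12.61 log2 on the control arrays. The groups stood apart by more than their spread, with a log2 fold change of 0.30 (SE 0.08, limma adjusted p = 0.999). Rps20, another small subunit protein, had values of 13.70, 13.83 and 13.88 log2 on the floxed arrays, against 13.61, 13.56 and 13.48 log2 on the control arrays. Its groups stood close, with a log2 fold change of 0.25 (SE 0.08, limma adjusted p = 0.999). Both genes rested on 1 probe set, and both kept their direction in the 15 other settings, at 0.24 to 0.33 log2 for Rps4x and 0.22 to 0.31 log2 for Rps20.

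Rpsa encodes a small subunit protein also known as the laminin receptor precursor. Its values were 10.33, 10.41 and 10.23 log2 on the floxed arrays, against 9.91, 9.98 and 10.01 log2 on the control arrays. The log2 fold change of 0.36 (SE 0.12, limma adjusted p = 0.999) rested on a probe set near the filter. That probe set averaged 7.92 log2 on the floxed and 7.33 log2 on the control arrays, so it passed the filter of 7.60 only through the floxed arrays, where it was high. The other probe set, at 12.74 log2 on the floxed and 12.60 log2 on the control arrays, had overlapping groups and a log2 fold change of 0.13, which is the value of Rpsa with the stricter filter. The place of Rpsa among the 12 genes without overlap and the 8 higher at an unadjusted p under 0.05 thus rests on the probe set near the filter, and its values are no support for a difference. Without floxed replicate 2 that probe set no longer passed, and the fold change of 0.08 log2 is that of the other probe set on the remaining arrays.

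Rpl4, whose protein lines the exit tunnel of the large subunit, had values of 13.52, 13.50 and 13.38 log2 on the floxed arrays, against 13.30, 13.04 and 13.30 log2 on the control arrays. Control replicate 2 was the lowest array, and the log2 fold change was 0.26 (SE 0.09, limma adjusted p = 0.999) with all arrays and 0.17 without it. With the mean over its 7 probe sets, which ran from -0.20 to 0.26 log2, it was 0.11. Rpl14, a large subunit protein, had values of 10.96, 10.96 and 10.81 log2 on the floxed arrays, against 10.73, 10.04 and 10.59 log2 on the control arrays. Its log2 fold change of 0.46 (SE 0.17, limma adjusted p = 0.999), on 1 kept probe set, was 0.25 without control replicate 2, so that array set much of its size. Rps28, a small subunit protein at the mRNA exit, had 12.24, 12.30 and 12.37 log2 on the floxed arrays, against 12.05, 12.15 and 12.08 log2 on the control arrays. The groups of Rps28 did not overlap, and its log2 fold change was 0.21 (SE 0.09, limma adjusted p = 0.999). All 7 of its kept probe sets were higher, by 0.01 to 0.31 log2, and on some of them the groups overlapped. Of the 7, 2 carried identical values, which were also the gene's value on every array.

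**Figure D3:**
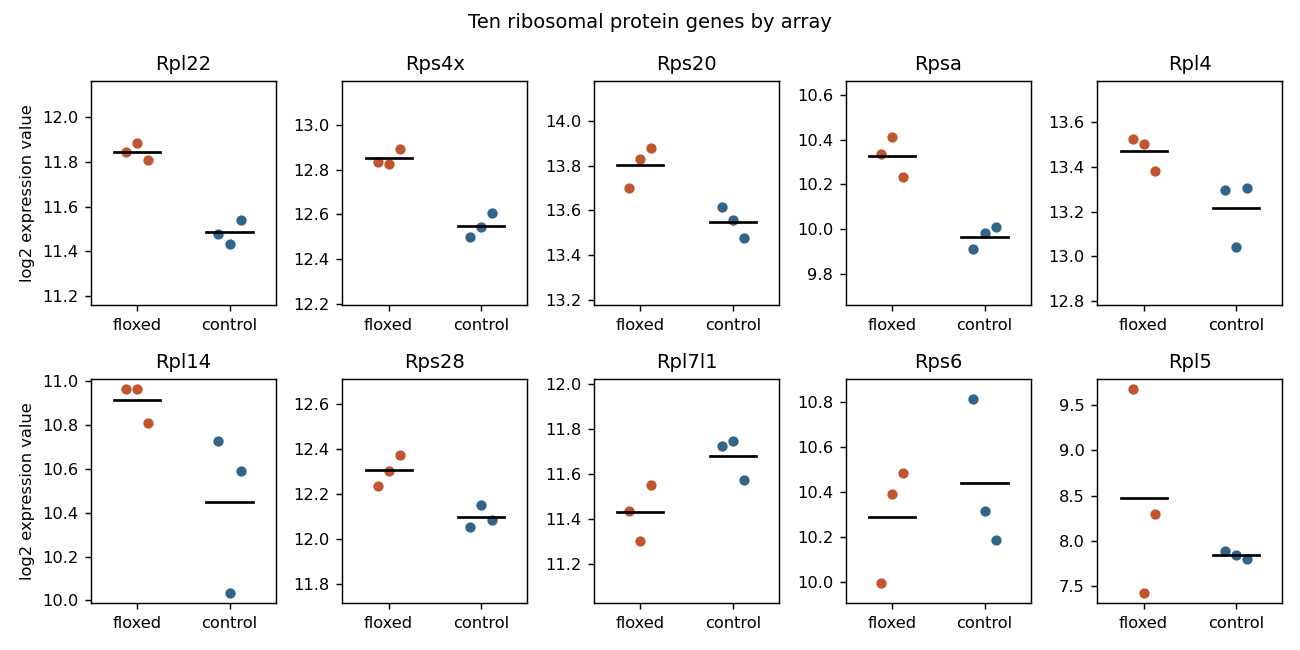
Log2 expression values of 10 ribosomal protein genes, 1 point per array and a bar at the group mean, with floxed arrays on the left of each panel; each axis spans at least 1 log2 unit and differs between panels. The gene values of Rpl22 and Rps4x separate the groups clearly, each resting mainly on 1 probe set. Rpl7l1 lies lower on the floxed arrays, and the floxed values of Rpl5 spread from 7.42 to 9.68.

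Promoter windows from RefSeq (build GRCm38.p6), 30 bases before to 30 bases after an annotated start, were read for the 8 higher and 3 lower members of smallest unadjusted p, of which Rps20 has no table entry, and are shown where they hold one of the motifs searched, because promoters of ribosomal protein genes are known for a TOP tract at the start and for sites of ETS factors and YY1. Capitals mark CTTTC or CTTTT on the transcript strand, CCGGAAG (the core of ETS sites), TCTCGCGA and AAGATGGC (a YY1 core), the last 3 on either strand. The annotated start is at the middle of each window. Of the marked CTTTC or CTTTT stretches only that of Rps6 lies next to it, so the others are not shown to be TOP tracts. In Rps28 the capitals are 2 overlapping matches of TCTCGCGA on opposite strands. The windows read for Rpl22, Rps4x, Rpl14 and Rpl10a held none of these motifs and are not shown.
Rpsa, chr9:120127736-120127795, plus strand: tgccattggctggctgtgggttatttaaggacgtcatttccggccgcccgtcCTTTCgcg
Rpl4, chr9:64173357-64173416, plus strand: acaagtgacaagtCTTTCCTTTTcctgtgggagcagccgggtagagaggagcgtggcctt
Rps28, chr17:33824533-33824592, minus strand: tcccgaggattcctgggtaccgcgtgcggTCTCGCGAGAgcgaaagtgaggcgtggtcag
Rps7, chr12:28635924-28635983, minus strand: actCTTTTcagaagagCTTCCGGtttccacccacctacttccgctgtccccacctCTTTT
Rpl7l1, chr17:46782627-46782686, minus strand: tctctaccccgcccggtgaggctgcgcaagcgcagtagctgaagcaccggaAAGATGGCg
Rps6, chr4:86857338-86857397, minus strand: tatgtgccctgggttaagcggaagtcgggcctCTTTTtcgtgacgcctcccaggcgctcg

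Windows were available for 57 of the 70 members, 69 windows in all, and for 32851 windows of all genes. In these 60 bases, CTTTC or CTTTT stood on the transcript strand in 36.2% of the members' windows and in 13.6% of all windows, and on either strand in 47.8% and 25.6%. In the full 300 bases, from 250 before to 50 after the start, CCGGAAG stood on either strand in 36.2% of the members' windows and 8.86% of all windows. TCTCGCGA stood in 15.9% and 0.995%, and AAGATGGC in 10.1% and 2.75%. CTTTGAT, a core of TCF/LEF sites, through which beta-catenin acts, stood in 0 of 69 members' windows and in 3.73% of all windows. These are letter matches in windows around annotated starts and were not tested against expression.

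The stalk of the large subunit, built from Rplp0, Rplp1 and Rplp2, recruits elongation factors. Rplp0 had 13.43, 13.38 and 13.43 log2 on the floxed arrays, against 13.41, 13.28 and 13.35 log2 on the control arrays, a log2 fold change of 0.07 (95% confidence interval -0.10 to 0.23). For Rplp1 the log2 fold change was -0.08 (95% confidence interval -0.35 to 0.19) and Rplp2 of 0.16 (95% confidence interval -0.11 to 0.44). The groups overlapped for all 3 stalk genes, and their intervals leave room for a difference in either direction.

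Genes mutated in human Diamond-Blackfan anaemia were followed as a group of 10, of which 7 passed the filter. Of the 7, 6 lay higher and 1 lower, where 80.3% of the members tested, which include these 7, and 54.2% of all genes tested lay higher. Their median log2 fold change was 0.09, and 0 passed in limma (smallest adjusted p = 0.999). Rps19, the gene most often mutated in that anaemia, had 11.95, 12.14 and 12.19 log2 on the floxed arrays, against 12.18, 12.03 and 11.79 log2 on the control arrays. The groups of Rps19 overlapped, with a log2 fold change of 0.09 (SE 0.12).

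Rps14, whose loss accounts for the anaemia of the human 5q deletion syndrome, had 11.40, 11.39 and 11.49 log2 on the floxed arrays, against 11.12, 11.30 and 11.37 log2 on the control arrays. Its groups were just apart, with a log2 fold change of 0.16 (SE 0.11), and its 3 probe sets differed by no more than 0.02 log2 in their fold changes. Without control replicate 1 the fold change was 0.09 log2. Rps7, which can bind Mdm2, had a log2 fold change of 0.23 (SE 0.10) on 1 kept probe set with overlapping groups, and 0.15 without control replicate 2. Rps24, Rps10 and Rps26 had log2 fold changes of 0.06, 0.03 and -0.01.

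Rpl5 forms a particle with Rpl11 and the 5S RNA that binds Mdm2 and so links ribosome assembly to p53. On its 1 probe set Rpl5 had 9.68, 7.42 and 8.30 log2 on the floxed arrays, against 7.88, 7.84 and 7.80 log2 on the control arrays. Floxed replicate 1 stood far above the other arrays, and the log2 fold change of 0.63 (SE 0.43) was 0.02 without it and 1.15 without floxed replicate 2. Rpl11 lay below the filter on its 1 probe set, at 2.76 to 3.53 log2 on the floxed and 3.15 to 4.26 log2 on the control arrays, and Rpl35a lay below it at 7.47 to 7.76 log2 on the floxed and 7.09 to 7.68 log2 on the control arrays. Without detection calls, such values cannot be told from background, and neither says whether the gene was expressed.

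Paralogs of core proteins are often made in few tissues. Rpl7l1, a paralog of Rpl7, was the 1 member with an unadjusted p under 0.05 on the lower side. It had 11.44, 11.30 and 11.55 log2 on the floxed arrays, against 11.73, 11.75 and 11.57 log2 on the control arrays. All floxed values were below all control values, though floxed replicate 3 and control replicate 3 nearly touched, with a log2 fold change of -0.25 (SE 0.11, limma adjusted p = 0.999).
Its 6 kept probe sets did not move together: 3 were higher and 3 lower, from -0.30 to 0.43 log2, and with the mean in place of the median over probe sets its fold change was -0.001 log2. Without the filter it was -0.14 log2. The partner Rpl7 had a log2 fold change of 0.14 with overlapping groups. The other paralogs that passed the filter were Rpl36al at 0.06, Rps27l at 0.13 and Rps4l at -0.01 log2, next to 0.03 for Rpl36a and 0.30 for Rps4x. The core genes Rpl3, Rpl10 and Rpl39 had log2 fold changes of 0.13, 0.02 and 0.06.

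The paralogs Rpl3l, Rpl10l, Rpl22l1 and Rpl39l lay below the filter. Rpl3l, known from muscle, had 5.75, 5.54 and 5.63 log2 on the floxed arrays, against 5.94, 5.81 and 5.89 log2 on the control arrays. It was lower on every floxed array, with a log2 fold change of -0.24 in the fit without a filter (limma adjusted p = 0.915). Rpl22l1, whose level rises in mice that lack Rpl22, had a log2 fold change of 0.18 with overlapping groups. Rpl10l and Rpl39l had log2 fold changes of 0.12 and 0.01, and the remaining members below the filter were Rpl6 at 0.45, Rpl28 at 0.25 and Rpl31 at 0.12. Rps27rt was not analysed here.

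Rps6 is the small subunit protein that S6 kinase phosphorylates downstream of mTOR. It had 9.996, 10.39 and 10.49 log2 on the floxed arrays, against 10.82, 10.31 and 10.19 log2 on the control arrays. The groups overlapped, and the log2 fold change of -0.15 (SE 0.19) was 0.04 without control replicate 1. Rpl10a, a protein of the L1 stalk, differed by -0.20 log2 (SE 0.11), and by -0.005 log2 with the mean over its probe sets. The other members on the lower side that were named by their p were Rps23 at -0.14, Rps15 at -0.07, Rpl27 at -0.05 and Rpl21 at -0.03 log2, and their groups overlapped.

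Of the 12 genes without overlap, Rps12, Rpl37, Rpl13 and Rps2 were singled out after their values were seen, as were Rpl23a and Rpl26. Rps12 had 10.67, 10.82 and 10.79 log2 on the floxed arrays, against 10.46, 10.51 and 10.57 log2 on the control arrays, with a log2 fold change of 0.25 (SE 0.11). Rpl37 and Rpl13 had log2 fold changes of 0.23 and 0.14, with nearest arrays of the groups close to each other. Without floxed replicate 3 they were 0.14 and 0.09 log2, and without control replicate 1 that of Rpl13 was 0.09. Without the filter that of Rpl37 was 0.43. Rps2 had a log2 fold change of 0.07, but -0.22 without the filter and -0.07 with the mean over probe sets. Rpl23a, on 1 kept probe set, and Rpl26 had 0.42 (SE 0.20) and 0.32 (SE 0.21) log2, with overlapping groups. The value of Rpl26 was 0.13 without control replicate 2, 0.21 without control replicate 3, 0.61 without control replicate 1 and 0.19 with the mean over probe sets.

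Each member was read by 1 to 10 probe sets, 238 in all, of which 200 passed the filter. Of the 200, 149 were higher, or 74.5%, where the background was 58.8% of 120788 probe sets. At an unadjusted p under 0.05 there were 14 higher and 3 lower, together 8.5%, where the background was 4.35%. The 14 include the probe set of Rpsa near the filter. It passed only through the floxed arrays, where it was high, and is no support for a difference. With probe sets of identical values counted once, 14 were higher and 2 lower at that threshold. In limma 0 of the 200 passed (smallest adjusted p = 0.975), where the background was 0.00414%. Among 32 genes with at least 3 kept probe sets, 13 had all of them higher and 0 had all of them lower. Within such a gene the fold changes of the probe sets spanned a median of 0.30 log2, which is more than the shift of the gene group.

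Rps10 showed the widest disagreement of those named. Of its 10 kept probe sets 6 were higher and 4 lower, from -0.72 to 0.13 log2. The lowest of them had 9.10, 8.64 and 9.14 log2 on the floxed arrays, against 9.84, 9.68 and 9.54 log2 on the control arrays, and so was lower on every floxed array, while the gene's median differed by 0.03 log2. Among genes with at least 3 kept probe sets, the highest fold change was that of a probe set of Rps12, with 11.21, 11.16 and 11.20 log2 on the floxed arrays, against 10.68, 10.56 and 10.71 log2 on the control arrays. Its log2 fold change was 0.54 (SE 0.13, limma adjusted p = 0.975).

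Of the 200 kept probe sets 14, in 7 genes, carried values identical to those of another probe set on all 6 arrays. Ribosomal protein genes have many processed pseudogenes with nearly the same sequence, and which copy such probe sets read is uncertain. With identical probe sets counted once, 145 of 193 were higher.

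**Figure D4:**
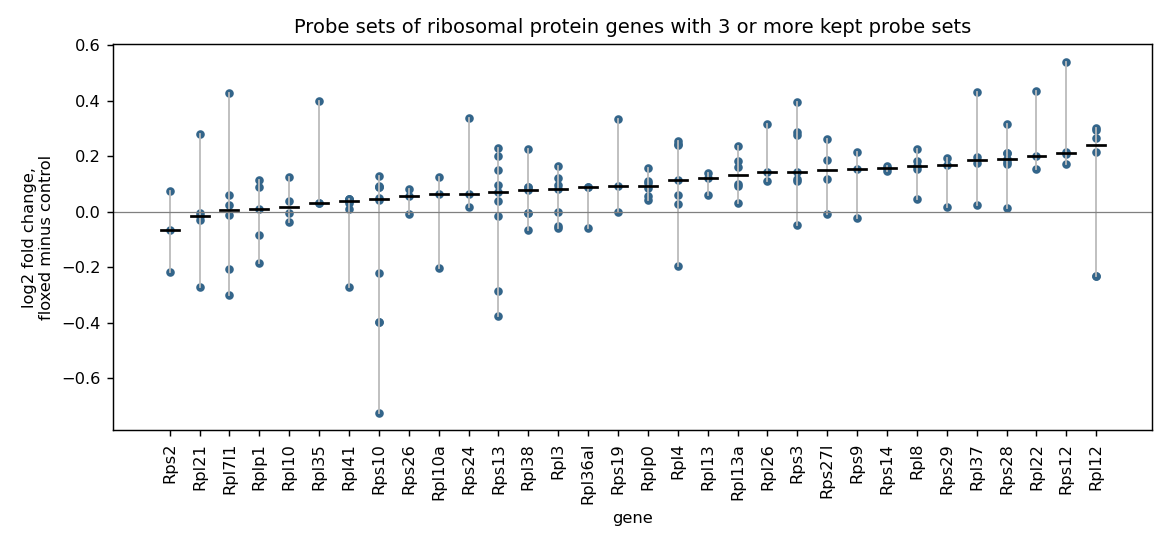
Log2 fold change (floxed minus control) of each kept probe set, 1 point each, for the 32 ribosomal protein genes with at least 3 of them, with a bar at their median. In 13 genes every point lies above 0, and in Rps10 the points run from -0.72 to 0.13.

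Genes that share the TOP tract or serve the ribosome were set beside the members. Fau, the precursor of a small subunit protein, had 12.29, 12.33 and 12.45 log2 on the floxed arrays, against 12.18, 12.26 and 12.14 log2 on the control arrays, with a log2 fold change of 0.16 and no overlap. Of 16 translation factors and other genes with TOP messages, 14 were higher and 2 lower, or 87.5% higher where the background was 54.2% of all genes. Their median log2 fold change was 0.14, with 0 passing the test. Naca, a subunit of the nascent chain complex, had 0.22 log2 (SE 0.09) and Eif4b, an initiation factor, -0.13 log2.

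Of 28 ribosome assembly genes tested, 21 were higher and 7 lower, or 75% higher where the background was 54.2% of all genes. Their median log2 fold change was 0.08, with 0 passing. Gar1, of the pseudouridylation complex, had 0.35 log2 (SE 0.14), and Bysl, of small subunit assembly, had -0.14 log2. Of a list of 12 genes (mTOR signalling, Larp1, cap binding and Myc), 8 were higher and 4 lower, or 66.7% higher against the same background, with a median of 0.04 log2. Eif4e, the cap-binding factor, had 0.29 log2 and Eif4ebp2, its inhibitor, -0.16 log2. Of 6 tested genes of the p53 response, 2 were higher and 4 lower, with a median of -0.003 log2. Phlda3, on the higher side, averaged 7.83 log2 on the floxed and 7.58 log2 on the control arrays. Its control mean lay below the filter, so it was kept only through the floxed arrays, where it was high. Cdkn1a, the cell cycle inhibitor p21, had -0.25 log2 and Ccng1 0.20 log2, and 0 genes of either list passed the test.

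Markers of other cell types were read on the same arrays, where 54.2% of all genes tested were higher on the floxed side. All 9 granulocyte markers tested of 10 lay lower on the floxed arrays, with a median of -0.46 log2 and a mean level of 9.35 to 10.18 log2 on the floxed and 9.44 to 10.57 log2 on the control arrays. All 7 erythroid markers tested of 10 lay lower, with a median of -0.23 log2 and a mean level of 9.56 to 9.99 on the floxed and 9.75 to 10.14 log2 on the control arrays. The B cell markers (7 of 8 tested, 3 higher and 4 lower) spanned a mean level of 8.99 to 9.58 log2 on the floxed and 8.42 to 9.89 log2 on the control arrays.

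Of 6 T and NK cell markers tested of 8, 1 was higher and 5 lower, with a mean level of 8.13 to 8.61 log2 on the floxed and 8.48 to 8.69 log2 on the control arrays. Among the lower ones, Il2rb averaged 7.56 log2 on the floxed and 7.96 log2 on the control arrays. Prf1 averaged 7.56 log2 on the floxed and 7.99 log2 on the control arrays. The floxed means of both genes lay below the filter, which used the mean over both groups. Their control arrays thus helped them pass it, and the count of lower T and NK cell markers depends partly on the filter. Stem cell markers (9 of 10 tested) were 5 higher and 4 lower, with a median of 0.02 log2. Proliferation genes (9 of 10 tested) were 6 higher and 3 lower, or 66.7% higher where the background was 54.2% of all genes, with a median of 0.16 log2. Their mean level was 10.90 to 10.999 log2 on the floxed and 10.72 to 10.89 log2 on the control arrays. The groups did not overlap, but their nearest arrays, at 10.90 and 10.89 log2, were close. Control replicate 3, low for genes in general, was the lowest array. None of these markers passed the test, none can be called absent without detection calls, and their part in the level of the ribosomal protein genes was not tested.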

How the data were processed

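Expression was measured on 6 arrays, 3 floxed and 3 control, from 100 ng of total RNA each, per the labels' protocols. The deposited table holds log2 values for 241576 probe sets, from 2.44 to 14.53. The log base was inferred from this range, and MAS5 is named in the submitters' processing notes without a version or role; other steps are not given in the sources used here. Probe sets were named from the platform annotation with symbols updated through RefSeq: 212097 had 1 symbol, 4475 several and 25004 none, and only those with 1 were used.

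Probe sets whose mean over the 6 arrays was at or above the median of such means (7.60) were kept, 120788 in all. Kept probe sets of a gene were summarised by their median. The test over the 14586 genes used limma 3.58.1 under R 4.3.3 (lmFit, eBayes with a trend, two-sided, Benjamini-Hochberg over all genes, threshold 0.05), and the fit was tested on simulated data.

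The named members were up to 8 per direction by unadjusted p, the stalk genes and Rpsa, Diamond-Blackfan genes, paralogs with partners, and Rps6. The members and lists were chosen with earlier results of these data known. Alternatives were other filters, the mean over probe sets, quantile normalization, equal array medians, other eBayes settings, array weights, a replicate block and leaving out each array. Promoter windows came from RefSeq, build GRCm38.p6.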

Additional observations from a re-analysis of the deposited data

How the results depend on the processing

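The number of arrays, 3 per group, limits precision. Calls over all genes (0 in the report) were 2 without a filter (Mup10 and Sva), 1 with the mean over probe sets (Ctnnb1), 404 with array weights, and 0 to 2 when 1 array was left out (Rab9 and Rny1 without control replicate 1). Calls among ribosomal protein genes (0) were 8 with array weights and 0 otherwise. Probe set calls (5) were 0 with a filter at the 75th percentile and 4 to 5 with 1 array left out. The small subunit median (0.08 log2) was 0.14 with the mean over probe sets, 0.048 after quantile normalization and 0.049 with equal array medians, and 0.060 to 0.11 with 1 array left out. The large subunit median (0.10) was 0.054 after quantile normalization and ran from 0.06 to 0.12 with 1 array left out. The members' median exceeded that of all genes by 0.06 to 0.11 log2 under the alternatives.

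Signs turned for genes with fold changes smaller than 0.15 log2 in size. With the mean over probe sets, Rps10 was -0.12, Rps26 0.042 and Rps2 -0.070 log2. Without a filter, Rps2 was -0.22 and Bysl 0.10. After quantile normalization, Rps10 was -0.0045, Rpl36a -0.0017 and Rpl10 -0.038, and with equal medians Rps10 was -0.00076 and Rpl10 -0.013. With array weights, Rpl21 was 0.055, Rpl27 0.10, Rps26 0.035 and Rpl36a -0.050. With 1 array left out, log2 fold changes ran from -0.012 to 0.054 for Rpl10, -0.097 to 0.028 for Rpl21, -0.13 to 0.12 for Rpl27, -0.015 to 0.12 for Rpl36a, -0.061 to 0.13 for Rpl39, -0.022 to 0.32 for Rpl7, -0.18 to 0.021 for Rplp1, -0.0022 to 0.084 for Rps10, -0.16 to 0.046 for Rps15, -0.016 to 0.18 for Rps19, -0.29 to 0.15 for Rps23, -0.013 to 0.17 for Rps24, -0.041 to 0.041 for Rps26, -0.11 to 0.11 for Rps4l, -0.27 to 0.040 for Rps6 and -0.34 to 0.049 for Bysl. Of 38 named members 16 turned under some alternative and 22 under none; the cause was not tested. Same-numbered arrays did not pair (correlations of deviations 0.20, -0.0036 and -0.24), and with the replicate block 0 ribosomal protein genes and 0 of all genes were called.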

Other observations

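Probe sets annotated with several symbols, at least 1 of them a ribosomal protein gene, entered no gene value. Of 220 such probe sets 212 passed the filter, and 163 of these were higher on the floxed arrays, where the background was 58.8% of 120788 probe sets. Their median log2 fold change was 0.07, with a range of -0.35 to 0.52. In limma 13 of the 212 had an unadjusted p under 0.05, where the background was 4.35% of all probe sets (smallest adjusted p = 0.975).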
